A study of Homo sapiens with 16 samples.

Results

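Translation initiation and elongation factor mRNAs were followed in a RIP-seq study of RNAs associated with ALKBH5 and RBM33. They were taken as every row with gene type protein coding whose symbol starts with EIF1 to EIF6, EEF1 or EEF2, leaving out the EIF2AK kinases and chromosome Y. This gave 66 of 16324 genes, all with a value in both tables used. The rule uses symbol, gene type and chromosome and no measured value, but it was chosen with earlier results of these data known. By name the rule also takes in the proteins that bind eIF4E, the enzymes that modify the elongation factors, and 2 readthrough rows that join a factor to its neighbour. The cells are labelled UM-SCC-1, an established head and neck squamous cell carcinoma line, transduced with lentivirus for a Strep-tagged empty vector (Strep-Vec-1), Strep-ALKBH5 or Strep-RBM33 and selected with puromycin, so that each bait was a tagged protein made from a transgene beside the cells' own. ALKBH5 removes the methyl mark m6A from RNA, and RBM33 is an RNA-binding protein. RNA recovered on StrepTactin-XT beads was sequenced beside input RNA in 16 libraries: 3 pull-down and 3 input libraries for the vector, 3 of each for ALKBH5, and 2 of each for RBM33. The labels do not say whether a line was a clone, nor that replicates came from separate cultures.

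The files used, whose names include siCtrl, hold the authors' own comparison for each bait, giving each gene an average log2 CPM, a log2 fold change and an adjusted p-value. They hold no value per library, so no spread between libraries and no depth can be given beside a value. Which groups were compared, and which way the ratio runs, is not stated, so values are called positive or negative as the tables have them. A gene is called where the authors' adjusted p is under 0.05. The cell label was checked against its markers: of the fixed markers of squamous epithelium, 6 (KRT5, KRT14, KRT17, TP63, SFN and DSG3) have no row in the tables used. ITGB4, another of them, had an average log2 CPM of at most 1.65 in either of the authors' deposited tables. The neurofilament genes NEFL and NEFM, from a list of other lineages of which 3 of 6 have a row, stood at 7.42 and 7.18 or higher in both of the authors' deposited tables. The libraries behind these averages are not stated and may include pull-down RNA. With that limit the data go against the squamous label on these markers, and the cells are referred to below only as those labelled UM-SCC-1.

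Translation starts when a small ribosomal subunit carrying eIF1, eIF1A, eIF3, eIF5 and eIF2 bound to GTP and initiator tRNA is recruited to the capped 5′ end of an mRNA by the eIF4F complex. It scans to a start codon, eIF5B joins the large subunit, and eEF1A and eEF2 then drive each round of elongation. Many mRNAs of this machinery, like those of the ribosomal proteins, begin with a 5′ terminal oligopyrimidine (TOP) tract, a C at the cap followed by a run of C and T, through which mTOR complex 1 and LARP1 control their translation.

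The listed starts of the genes are shown because the TOP tract is the sequence feature most often named for this group. RefSeq windows of 15 bases before and 15 bases from the listed start (build GRCh38.p14) were available for 52 of the 66 genes. A C followed by at least 4 pyrimidines, read on the transcribed strand from the first listed base, was present in 12 of the 52 (23.1%), against 4.07% of 35116 RefSeq promoters and 39 of 62 cytosolic ribosomal protein genes (62.9%). Counting such a run anywhere within 10 bases of the listed start gave 46.2% of the 52 and 33.5% of all. The windows below cover factors usually listed as TOP mRNAs and the helicase mRNAs at the positive end of the tables, with the pyrimidine run that begins at the listed start in capitals.
EEF1A1 (chr6:73521018-73521047, minus strand): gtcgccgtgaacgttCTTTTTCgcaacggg
EEF2 (chr19:3985449-3985478, minus strand): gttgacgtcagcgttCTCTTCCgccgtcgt
EIF3F (chr11:7987322-7987351, plus strand): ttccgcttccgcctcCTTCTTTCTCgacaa
EIF4B (chr12:53006441-53006470, plus strand): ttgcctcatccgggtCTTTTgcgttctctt
EEF1B2 (chr2:206159594-206159623, plus strand): gccggaagtggccccagcctcgaggccggg
EEF1G (chr11:62573877-62573906, minus strand): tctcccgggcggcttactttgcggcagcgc
EIF4A2 (chr3:186783562-186783591, plus strand): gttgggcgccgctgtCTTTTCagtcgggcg
EIF4A1 (chr17:7572810-7572839, plus strand): aggcgggcactccgccctagtttctaagga
The run starts at the listed base in EEF1A1, EEF2, EIF3F and EIF4B, and also in EIF4A2, whose value is positive. It is not found at the listed start of EEF1B2, EEF1G or EIF4A1; these letters are from a single listed start per gene, and cells may use another.

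The factor mRNAs lay mostly on the negative side of both tables, with the RNA helicase mRNAs EIF4A1 and EIF4A2 and the scaffold mRNA EIF4G3 as the main exceptions. In the authors' deposited table of ALKBH5, 49 of the 66 were called negative, 5 positive and 12 were not called. Among all 16324 genes of the authors' deposited table, 29.1% were called negative and 30.5% positive, and over the 13210 protein-coding genes 33.3% and 27.5%. In the authors' deposited table of RBM33, 45 were negative, 5 positive and 16 not called, beside 27% negative and 24% positive over all genes and 31.2% and 21.5% over protein-coding genes. These shares are also the background for the counts by role and for TOP mRNAs below. The median log2 fold change of the 66 was -0.92 with ALKBH5 and -0.82 with RBM33 in the authors' deposited tables, against -0.08 and -0.13 for all protein-coding genes. Values ranged from -2.40 (EIF3J) to 1.70 (EIF4A1) with ALKBH5, and from -2.21 (EEF1B2) to 1.69 (EIF4A1) with RBM33, in the authors' deposited tables. Without 4 genes that hold small nucleolar RNA rows and the 2 readthrough rows, 46 of 60 stayed negative and 3 positive with ALKBH5, and 42 and 3 with RBM33, per the authors' deposited tables. Over all genes so restricted, 28.9% were negative and 30.5% positive with ALKBH5, and 26.9% and 24% with RBM33. With calls limited to at least 1 log2 unit, 30 were negative and 2 positive with ALKBH5 in the authors' deposited table, and 25 and 2 with RBM33. At that cut 16.2% of all genes were negative and 21% positive with ALKBH5, and 16.7% and 17.1% with RBM33.

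**Figure D1:**
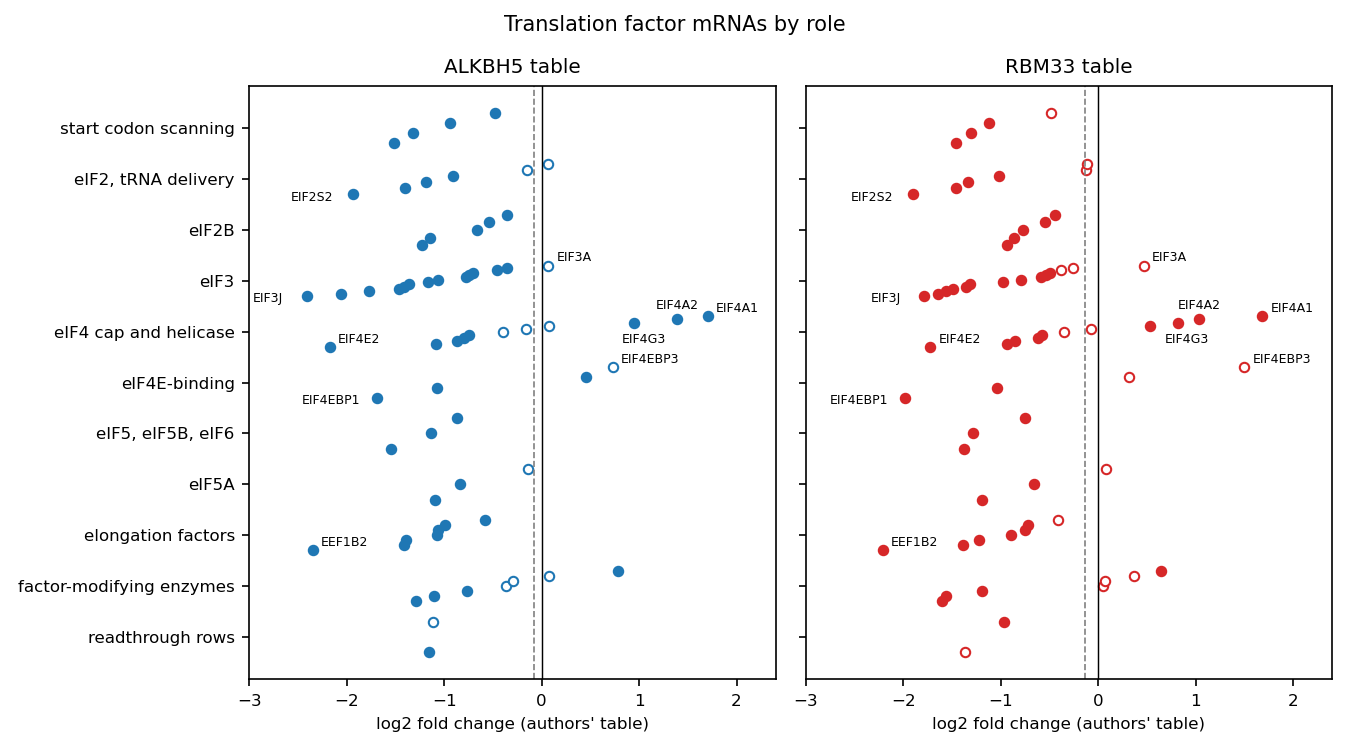
Each point is 1 translation factor mRNA, placed by its log2 fold change from the authors' deposited tables (x axis) and its role (y axis), with ALKBH5 on the left and RBM33 on the right; filled points have an adjusted p under 0.05, and the dashed line is the median of all protein-coding genes (-0.08 and -0.13). Most filled points lie left of 0, and EIF4A1, EIF4A2 and EIF4G3 are the filled points farthest to the right in the row of eIF4 factors.

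Most factors of start codon scanning were negative. Of 4 rows, 4 were called negative in the authors' deposited table of ALKBH5 and 3 in that of RBM33, with medians of -1.13 and -1.21. EIF1AX, which encodes the eIF1A that helps the scanning subunit bind and move along the mRNA, had the lowest value of these rows with ALKBH5, -1.51 (adjusted p = 3.46e-07), and -1.30 with RBM33 in the authors' deposited tables. EIF1, the monitor of start codon fidelity, stood at -1.33 with ALKBH5 and was the lowest with RBM33 at -1.46 (adjusted p = 4.92e-05) in the authors' deposited tables. Its close relative EIF1B had -0.94 and -1.12 in the authors' deposited tables, both called. EIF1AD, a protein with an eIF1A-like domain and no established part in initiation, was nearest to 0, at -0.48 (adjusted p = 0.0377) with ALKBH5 and -0.49 (adjusted p = 0.0845, not called) with RBM33 in the authors' deposited tables.

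Of 6 rows for eIF2 and initiator tRNA delivery, 4 were called negative and 0 positive in each of the authors' deposited tables, with medians of -1.05 and -1.18. Among the subunits of eIF2, those encoded by EIF2S1 and EIF2S2 were negative and EIF2S3 was not called. EIF2S2, the beta subunit (chromosome 20, 34088309 to 34112243, hg38), had -1.94 (adjusted p = 1.99e-07) with ALKBH5 and -1.90 (adjusted p = 8.97e-06) with RBM33 in the authors' deposited tables. EIF2S1, the alpha subunit whose phosphorylation lowers translation under stress, had -1.40 and -1.46 in the authors' deposited tables, both called negative. EIF2S3, the gamma subunit that binds GTP and the tRNA, was not called, at -0.15 (adjusted p = 0.312) with ALKBH5 and -0.12 (adjusted p = 0.529) with RBM33 in the authors' deposited tables. Its copy EIF2S3B, with an average log2 CPM of only 0.87 and 0.31, had 0.06 and -0.12, not called, per the authors' deposited tables; reads of these near-identical genes may be split between them. EIF2A and EIF2D, which can deliver initiator tRNA outside the main route, were called negative under both baits in the authors' deposited tables, at -1.19 and -0.91 with ALKBH5 and -1.01 and -1.34 with RBM33. Differences between genes within a table were not tested, because that needs values per library. The exchange factor eIF2B, which reloads eIF2 with GTP, was negative for 5 of 5 subunit mRNAs in both of the authors' deposited tables, with medians of -0.66 and -0.77. Its values ran from -1.23 (EIF2B4) to -0.35 (EIF2B2, adjusted p = 0.0479, close to the threshold) with ALKBH5 and from -0.94 (EIF2B4) to -0.44 (EIF2B5) with RBM33 in the authors' deposited tables.

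The eIF3 complex, the large scaffold on the small ribosomal subunit, had 13 of 14 rows negative and 0 positive with ALKBH5, and 11 negative and 0 positive with RBM33 in the authors' deposited tables (medians -1.12 and -0.88). EIF3J, a loosely attached subunit that acts at the decoding site, was the lowest of the complex, at -2.40 (adjusted p = 7.85e-08) with ALKBH5 and -1.78 (adjusted p = 9.56e-06) with RBM33 in the authors' deposited tables. This placed it at percentile 0.522 of all protein-coding genes with ALKBH5 and at 4.29 with RBM33, per the authors' deposited tables. EIF3H and EIF3M, of the structural core of the complex, had -2.06 and -1.77 with ALKBH5 and -1.56 and -1.65 with RBM33 in the authors' deposited tables. EIF3G, an RNA-binding subunit, and EIF3I followed at -1.46 and -1.42 with ALKBH5 and -1.49 and -1.35 with RBM33 in the authors' deposited tables. The largest subunit, EIF3A (chromosome 10, 119033670 to 119080823, hg38), had the highest value of the complex: 0.07 (adjusted p = 0.715) with ALKBH5 and 0.47 (adjusted p = 0.0673) with RBM33 in the authors' deposited tables, not called in either. EIF3B, its scaffold partner, had -0.75 (adjusted p = 0.000581) with ALKBH5 and -0.38 (adjusted p = 0.0692, not called) with RBM33, per the authors' deposited tables. EIF3E and EIF3F, both usually listed as TOP mRNAs, lay nearest to 0 among the called rows with ALKBH5 at -0.36 and -0.46 in the authors' deposited tables. For RBM33 EIF3E was called at -0.50 (adjusted p = 0.0188) and EIF3F had -0.25 (adjusted p = 0.171, not called) in the authors' deposited table. EIF3C and EIF3CL encode near-identical proteins from neighbouring copies on chromosome 16, so their values in the authors' deposited tables, -0.70 and -0.77 with ALKBH5 and -0.53 and -0.58 with RBM33, are not separate measurements. EIF3D, which can itself bind the cap of some mRNAs, and the smaller subunits EIF3K and EIF3L were called negative with both baits, between -1.36 and -0.80 over these rows of the authors' deposited tables.

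The factors that bind the cap and unwind the mRNA spanned both sides. Of 11 rows, 3 were positive and 5 negative with ALKBH5, and 4 positive and 5 negative with RBM33, in the authors' deposited tables. The positive share with ALKBH5, 27.3%, was near the 27.5% of all protein-coding genes, and with RBM33 it was 36.4% beside 21.5%. The negative share was 45.5% with each bait, beside 33.3% and 31.2% of all protein-coding genes. EIF4A1, the main RNA helicase of eIF4F (chromosome 17, 7572824 to 7579006, hg38), had the highest value of all 66 in both of the authors' deposited tables, 1.70 (adjusted p = 1.89e-05) with ALKBH5 and 1.69 (adjusted p = 1.69e-05) with RBM33. EIF4A2, a close relative of that helicase (chromosome 3, 186783205 to 186789897, hg38), had 1.39 (adjusted p = 9.12e-06) and 1.03 (adjusted p = 0.000221) in the authors' deposited tables. EIF4A3, the related helicase that forms the core of the exon junction complex rather than of eIF4F, was negative at -1.09 and -0.85 in the authors' deposited tables. EIF4G3, a scaffold that joins cap-binding protein and helicase (chromosome 1, 20806292 to 21176888, hg38), was positive at 0.95 (adjusted p = 2.61e-05) and 0.81 (adjusted p = 0.00105) in the authors' deposited tables. The main scaffold EIF4G1 had 0.07 (adjusted p = 0.702, not called) with ALKBH5 and 0.53 (adjusted p = 0.0252) with RBM33 in the authors' deposited tables. EIF4G2, the scaffold that lacks the site for the cap-binding protein, was negative at -0.80 and -0.62, per the authors' deposited tables. EIF4G2 and EIF4G3 were thus called with opposite signs under both baits.

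Among the cap-binding proteins, EIF4E2, which represses translation of the mRNAs it binds, was negative at -2.17 (adjusted p = 1.5e-06) with ALKBH5 and -1.73 (adjusted p = 1.3e-05) with RBM33 in the authors' deposited tables. EIF4E itself, the limiting cap-binding subunit of eIF4F, was not called, at -0.16 (adjusted p = 0.538) and -0.35 (adjusted p = 0.0945) in the authors' deposited tables. EIF4E3 had -0.39 (adjusted p = 0.121, not called) with ALKBH5 and -0.94 (adjusted p = 0.00267) with RBM33 in the authors' deposited tables. EIF4H and EIF4B stimulate the helicase. EIF4H was called negative with both baits, at -0.87 and -0.58, per the authors' deposited tables. EIF4B was negative with ALKBH5 at -0.75 (adjusted p = 0.000179) and stood at -0.07 (adjusted p = 0.715) with RBM33 in the authors' deposited tables; after centring on the protein-coding median the uncalled RBM33 value changed sign, to 0.0585. Whether EIF4B differs between the baits was not tested.

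Of 4 rows for proteins that bind eIF4E, 2 were negative in each of the authors' deposited tables, and 1 was positive with ALKBH5 and 0 with RBM33. All protein-coding genes had 33.3% negative and 27.5% positive with ALKBH5, and 31.2% and 21.5% with RBM33. The 4 rows are too few to be set apart from these shares. EIF4EBP1, the mTOR-controlled inhibitor of eIF4F assembly, was negative at -1.69 (adjusted p = 8.55e-06) with ALKBH5 and -1.99 (adjusted p = 1.13e-05) with RBM33 in the authors' deposited tables. Its relative EIF4EBP2 had -1.07 and -1.04, both called in the authors' deposited tables. EIF4EBP3 had 0.73 and 1.50 in the authors' deposited tables and was not called (adjusted p = 0.253 and 0.165); its average log2 CPM was only 0.81 and 0.31. The readthrough row ANKHD1-EIF4EBP3, which overlaps it on the same strand and is not in the group by name, was positive at 0.91 (adjusted p = 2.67e-05) and 0.96 (adjusted p = 0.00129) in the authors' deposited tables, so reads may be shared. EIF4ENIF1, which carries eIF4E into the nucleus and to sites of mRNA decay, was positive with ALKBH5 at 0.46 (adjusted p = 0.017) and had 0.31 (adjusted p = 0.196, not called) with RBM33 in the authors' deposited tables. On the opposite strand it is overlapped by SFI1 (2.14 and 2.07) and DRG1 (-1.10 and -1.08). Whether counting used strand is not given, and any share of their reads in EIF4ENIF1 was not tested.

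EIF5, EIF5B and EIF6 were negative for 3 of 3 rows in both of the authors' deposited tables. EIF5, which triggers GTP hydrolysis on eIF2, had -1.55 (adjusted p = 4.59e-06) with ALKBH5 and -1.28 with RBM33, per the authors' deposited tables. EIF5B, the GTPase of subunit joining, was the highest of these rows at -0.87 and -0.75, and EIF6, which keeps large subunits from joining too early, had -1.13 and -1.37 in the authors' deposited tables. Of the 3 rows for eIF5A, 2 were negative and 0 positive in each of the authors' deposited tables. EIF5A, the hypusine-bearing factor that relieves stalled ribosomes, was negative at -1.09 (adjusted p = 0.00018) and -1.19 (adjusted p = 0.000165) in the authors' deposited tables. Its relative EIF5A2 had -0.14 (adjusted p = 0.788) and 0.08 (adjusted p = 0.9) in the authors' deposited tables, not called, at an average log2 CPM of 1.72 and 2.23. The row EIF5AL1, a near-identical intronless copy of EIF5A, had -0.84 and -0.65 per the authors' deposited tables and can share its reads.

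Elongation factor mRNAs were negative for 7 of 7 rows with ALKBH5 and 6 of 7 with RBM33 in the authors' deposited tables, with 0 positive and medians of -1.07 and -0.90. EEF1B2, the exchange factor subunit that reloads eEF1A with GTP (chromosome 2, 206159585 to 206162928, hg38), was the lowest, at -2.35 (adjusted p = 1.55e-07) with ALKBH5 and -2.21 (adjusted p = 1.1e-05) with RBM33 in the authors' deposited tables. The other exchange complex subunits, EEF1G and EEF1D, were called at -1.41 and -0.58 with ALKBH5 and -1.22 and -0.72 with RBM33 in the authors' deposited tables. EEF1A1, which brings aminoacyl-tRNA to the ribosome, had -1.07 (adjusted p = 0.0007) and -0.75 (adjusted p = 0.0115) in the authors' deposited tables. EEF2, the translocase, had -1.06 (adjusted p = 0.00294) with ALKBH5 and -0.41 (adjusted p = 0.0967, not called) with RBM33, per the authors' deposited tables. EEF1E1, by name a factor and known as a subunit of the multi-synthetase complex, had -0.99 and -1.39 in the authors' deposited tables, both called. EEF1G overlaps the readthrough row AP002990.1 on the same strand, which had -1.37 and -1.19 in the authors' deposited tables.

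EEF1A2, the form of eEF1A known from muscle and neurons, was negative at -1.39 (adjusted p = 8.93e-06) and -0.90 (adjusted p = 0.000317) in the authors' deposited tables. Its average was not low: per kilobase of listed length its average log2 CPM was, from the authors' deposited tables, 5.09 with ALKBH5 and 4.79 with RBM33, against 7.46 and 7.42 for EEF1A1. NEFL and NEFM, given above, also had high averages. The libraries behind these averages are not stated and may mix pull-down with input RNA. The averages therefore need not give the level in the cells. In bulk RNA, many cells with little of an mRNA and few with much cannot be told apart. On the same scale of abundance EEF2 was the highest of the 66 (9.56 and 8.96), and EIF4EBP1 came next (8.54 and 8.75) in both of the authors' deposited tables. This order is approximate, since a listed length need not match the mRNA made in the cells. The median average log2 CPM of the 66 was 6.96 with ALKBH5 and 6.86 with RBM33 in the authors' deposited tables, above the 4.43 and 4.46 of all protein-coding genes.

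Of the enzymes that modify the elongation factors, 1 of 7 was positive (14.3%) and 3 negative (42.9%) in each of the authors' deposited tables. All protein-coding genes had 27.5% positive and 33.3% negative with ALKBH5, and 21.5% and 31.2% with RBM33. With only 7 rows the mix is not read as a trait of these enzymes. EEF1AKMT1 and EEF1AKMT4, both lysine methyltransferases of eEF1A, were negative at -1.29 and -1.11 with ALKBH5 and -1.56 and -1.60 with RBM33, per the authors' deposited tables. EEF1AKMT2, another such enzyme, was positive at 0.78 (adjusted p = 0.0457) and 0.65 (adjusted p = 0.0443) in the authors' deposited tables, close to the threshold. EEF2KMT, which methylates eEF2, was negative at -0.76 and -1.19 in the authors' deposited tables. EEF2K, the kinase that inactivates eEF2, was not called at 0.07 (adjusted p = 0.644) and 0.37 (adjusted p = 0.0763) in the authors' deposited tables, nor were EEF1AKMT3 (-0.37 and 0.05) and EEF1AKNMT (-0.29 and 0.07). The readthrough row EEF1E1-BLOC1S5 was negative in both (-1.15 and -0.96), and EEF1AKMT4-ECE2 was called in neither (-1.12 and -1.36) of the authors' deposited tables. Each overlaps the factor gene it is named for.

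Paralogues with like proteins did not always lie together. The widest gap among 7 fixed pairs was between EIF4E and EIF4E2, 2.01 log2 units with ALKBH5 and 1.38 with RBM33 between their values in the authors' deposited tables. EIF5A lay below EIF5A2 by 0.95 with ALKBH5 and 1.28 with RBM33, but EIF5A2 was the far less abundant in the authors' deposited tables. EIF1 with EIF1B (gaps of 0.39 and 0.34), EEF1A1 with EEF1A2 (0.31 and 0.15) and EIF4A1 with EIF4A2 (0.32 and 0.65) each shared a direction in both of the authors' deposited tables. These gaps have no test, for lack of values per library.

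**Figure D2:**
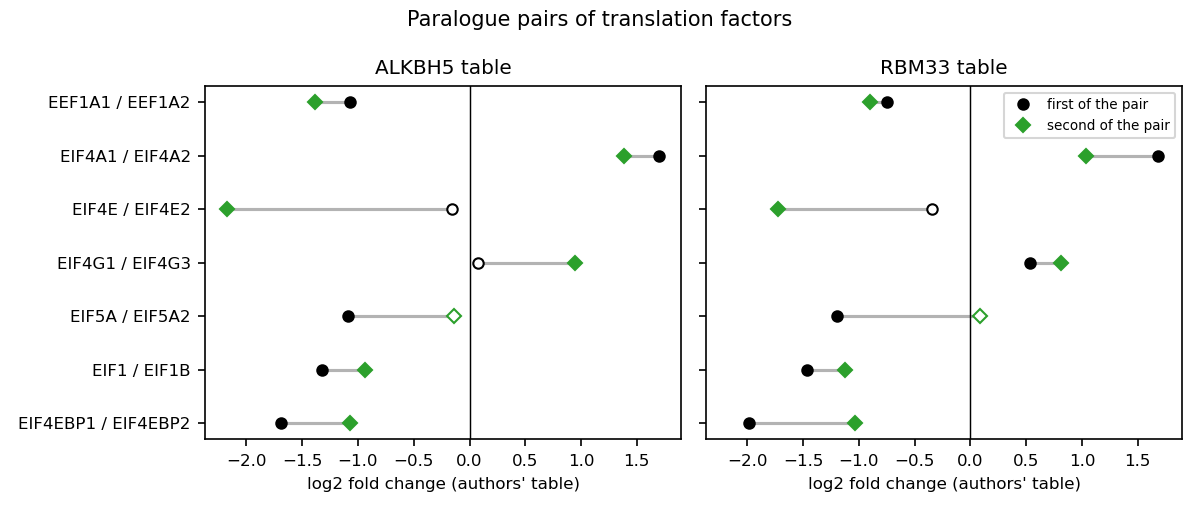
Each row is a pair of related genes, with the log2 fold change from the authors' deposited tables on the x axis for ALKBH5 (left) and RBM33 (right); circles are the first gene named, diamonds the second, and open symbols were not called. EIF4E and EIF4E2 are the farthest apart, and EIF4A1 and EIF4A2 lie together on the positive side.

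The TOP mRNAs among the factors lay mostly on the negative side, as did the other factors. Of 9 members usually listed as TOP mRNAs (EEF1A1, EEF1B2, EEF1D, EEF1G, EEF2, EIF3E, EIF3F, EIF3H and EIF4B), 9 were negative with ALKBH5 and 6 with RBM33 in the authors' deposited tables, with medians of -1.06 and -0.72. Of the other 57 rows, 40 were negative with ALKBH5 (median -0.91) and 39 with RBM33 (median -0.87), per the authors' deposited tables. Sorting by the sequence instead, genes with the C and pyrimidine run at the listed start were negative in 9 of 12 cases with ALKBH5 and 6 of 12 with RBM33 in the authors' deposited tables. Those with another listed start were negative in 29 of 40 and 28 of 40, per the authors' deposited tables. The 5 fixed TOP mRNAs from outside the group were negative with both baits, per the authors' deposited tables: TPT1 (-2.01 and -2.02), NAP1L1, a nucleosome assembly protein (-1.93 and -1.94), PABPC1, the poly(A)-binding protein (-1.62 and -1.40), HNRNPA1 (-1.43 and -1.23) and RACK1, a protein of the small ribosomal subunit (-1.31 and -1.27).

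Listed gene length moves with the fold change in these tables, and the factors were therefore read within 5 equal groups of protein-coding genes by length. The median listed length of the 66 was 5256 bases, beside 5228 for all protein-coding genes. Among the shortest genes, up to 2919 bases, 12 of 14 factors were negative with ALKBH5 in the authors' deposited table, where 53.6% of all genes of that length were, and 12 of 14 with RBM33, beside 52.3%. Among genes of 6133 to 8650 bases 10 of 12 were negative in each of the authors' deposited tables, beside 24.1% with ALKBH5 and 21.7% with RBM33. Among the longest, from 8651 bases, 6 of 10 were negative with ALKBH5 and 5 of 10 with RBM33, beside 15.4% and 12.7% in the authors' deposited tables. In the 2 groups between, 13 of 17 (beside 40.7%) and 8 of 13 (beside 32.6%) were negative with ALKBH5, and 11 of 17 (beside 39.7%) and 7 of 13 (beside 29.6%) with RBM33, per the authors' deposited tables. Positive calls were more frequent among longer protein-coding genes, from 7.99% through 15.6%, 25.5% and 35.8% to 52.6% with ALKBH5 and from 4.96% through 9.57%, 18.6% and 27.6% to 46.8% with RBM33 in the authors' deposited tables. Of the positive factors, 4 (ALKBH5) and 3 (RBM33) lie in the middle group, EIF4A1, EIF4A2 and EEF1AKMT2 among them, and the rest, EIF4G3 and for RBM33 EIF4G1, among the longest genes. The share of negative calls among the factors was above that of all protein-coding genes in each group of both tables. EIF3I (9756 bases, -1.42 and -1.35) and EEF1A1 (10063 bases) are examples of long listed genes with negative values in the authors' deposited tables. Across the 66 the Spearman correlation of fold change with listed length was 0.30 with ALKBH5 and 0.36 with RBM33, beside 0.41 and 0.45 over all protein-coding genes, in the authors' deposited tables; genes are not independent replicates. Abundance moves with the calls too. Among genes with at least the median average log2 CPM of the table, 45 of 55 factors were negative with ALKBH5, beside 45.4% of all such genes. With RBM33 42 of 57 were, beside 44% in the authors' deposited tables. The Spearman correlation of fold change with average log2 CPM was -0.27 with each bait over all protein-coding genes. Across the 66 it was -0.21 with ALKBH5 and -0.07 with RBM33. Neither this cut nor the length groups match the factors to other genes in abundance.

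**Figure D3:**
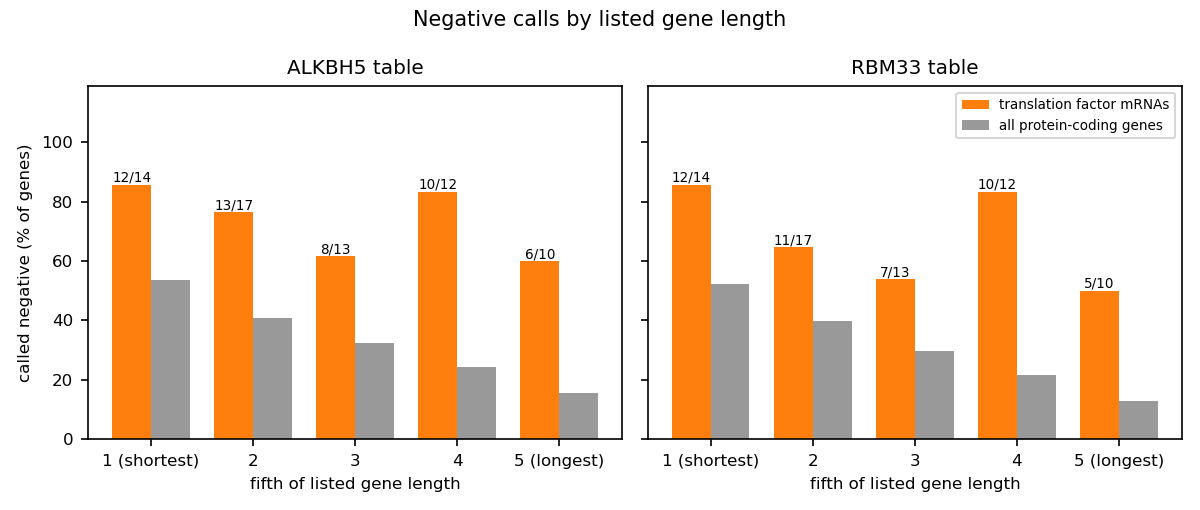
Bars give the percent of genes called negative (adjusted p under 0.05 and a log2 fold change under 0 in the authors' deposited table) in 5 equal groups of protein-coding genes by listed length, for the translation factors (orange, with counts) and all protein-coding genes (grey). The grey bars fall from 53.6% to 15.4% with ALKBH5 and from 52.3% to 12.7% with RBM33, and every orange bar is above its grey neighbour.

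The helicase genes at the positive end contain small nucleolar RNAs (snoRNAs), guides of ribosomal RNA modification that are cut from introns of host transcripts. EIF4A1 spans 6183 bases and its listed length covers 84.1% of that span, and for EIF4A2 the listed length covers 91.6% of 6693 bases, against a median of 23.5% over the 66. Coverage was also high, at 95.7% for EIF1 and 87% for EIF2B4, in genes called negative with both baits in the authors' deposited tables. EIF1 and EIF2B4 hold no snoRNA row. Both snoRNA rows inside EIF4A1 were positive whichever bait was used, per the authors' deposited tables: SNORD10 at 4.90 and 5.04, and SNORA67 at 3.26 and 3.48. Inside EIF4A2, SNORA81 had 5.59 and 5.71, SNORA4 3.22 and 3.14, and SNORD2 2.12 and 1.40 (adjusted p = 0.0699 with RBM33, not called) in the authors' deposited tables. MIR1248, which overlaps SNORA81 on the same strand, had 5.58 and 5.70 in the authors' deposited tables and is not a separate measurement. The readthrough row SENP3-EIF4A1, on the same strand, was negative at -0.86 (adjusted p = 8.76e-05) and -0.94 (adjusted p = 0.000267) in the authors' deposited tables. The long noncoding RNA row AC016876.2, also on that strand, was negative at -0.57 (adjusted p = 0.00347) and -0.69 (adjusted p = 0.00199) there. The spans of SENP3-EIF4A1 and AC016876.2 each include both snoRNA rows of EIF4A1, so reads may be shared among these rows.

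Of the 4 factor genes with a snoRNA row inside, 2 were positive and 2 negative in each of the authors' deposited tables. Their snoRNA rows differed in abundance. In the authors' deposited table of ALKBH5 the average log2 CPM was 7.87 for SNORD10 beside 8.61 for EIF4A1. It was 4.57 for SNORA81 beside 7.12 for EIF4A2, 4.72 for SNORD97 beside 9.05 for EIF4G2, and 4.35 for AL732366.1 beside 7.36 for EIF1AX. EIF4G2, with SNORD97 at 2.71 and 3.05, and EIF1AX, with the snoRNA rows AL732366.1 at 4.11 and 4.31 and AL732366.2 at 3.12 and 2.58, were themselves negative in the authors' deposited tables; their listed lengths cover 71.4% and 25.5% of their spans. Of 64 protein-coding genes with a snoRNA row inside on the same strand, 25% were positive and 62.5% negative with ALKBH5, and 23.4% and 60.9% with RBM33 in the authors' deposited tables. How reads over these snoRNAs were counted is not stated, and their part in the values of EIF4A1 and EIF4A2 was not tested. EIF4G3 holds no snoRNA row in the tables, and its listed length covers 2.59% of its span.

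**Figure D4:**
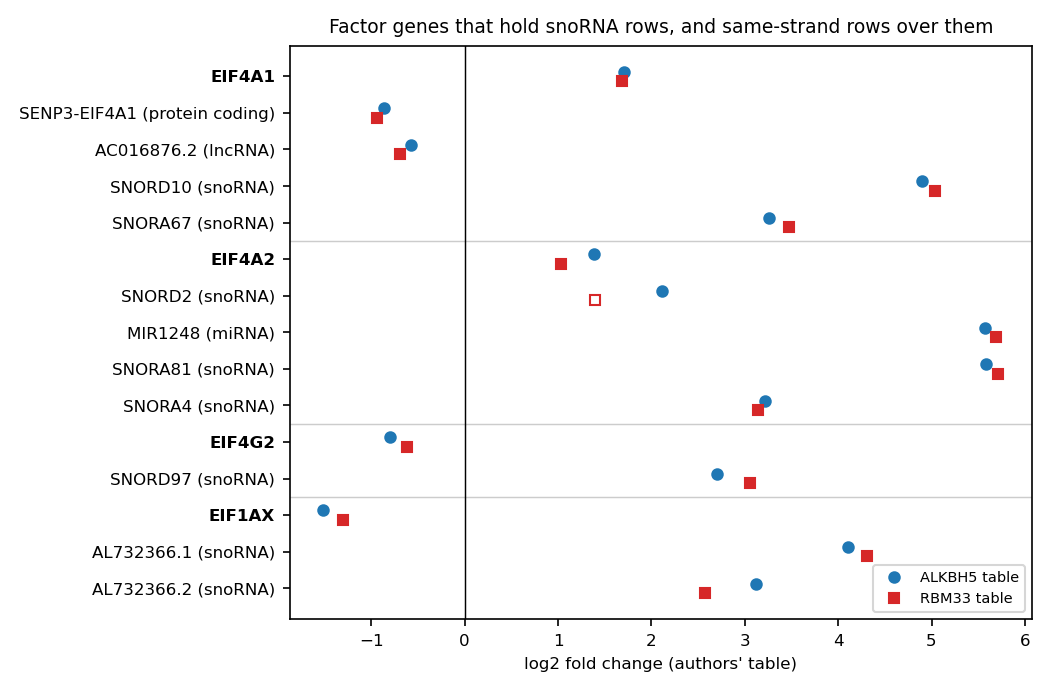
The 4 factor genes that hold snoRNA rows (bold) and the rows that overlap them on the same strand are placed by their log2 fold change from the authors' deposited tables for ALKBH5 (blue circles) and RBM33 (red squares); open symbols were not called. The snoRNA rows are positive at 1.40 to 5.71, whereas EIF4A1 and EIF4A2 are positive and EIF4G2 and EIF1AX negative.

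Rows named for pseudogenes of the factors are set beside all processed pseudogenes. Of 21 such rows outside chromosome Y, 12 were negative (57.1%) and 0 positive with ALKBH5 in the authors' deposited table. With RBM33 5 were negative (23.8%) and 0 positive. Over the 513 rows typed as processed pseudogenes 37.6% were negative and 13.8% positive with ALKBH5, and 25.9% and 11.7% with RBM33. The negative share with RBM33 was thus near that of all processed pseudogenes. Positive calls were few among all processed pseudogenes too, so their absence from the 21 rows is not read as a trait of these rows. EEF1A1P5 and EEF1A1P6, with an average log2 CPM of 7.54 and 7.15 with ALKBH5, had -1.60 and -1.38 there, and -1.05 and -1.04 with RBM33 in the authors' deposited tables. They are close copies of EEF1A1, so reads may be shared between them. EEF1B2P3 had -1.86 and -1.78, beside -2.35 and -2.21 for EEF1B2, per the authors' deposited tables. EIF4A1P10, a pseudogene of EIF4A1, had -0.65 with ALKBH5 and 0.45 with RBM33 in the authors' deposited tables and was not called, at an average log2 CPM of only 0.88 and 0.42.

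Other genes of translation, from fixed lists outside the group, are set beside the 33.3% negative and 27.5% positive of all protein-coding genes with ALKBH5, and the 31.2% and 21.5% with RBM33, in the authors' deposited tables. Termination, recycling and rescue factors had 5 of 7 listed genes negative and 1 positive with ALKBH5, and 5 and 0 with RBM33, in the authors' deposited tables. DENR, which helps recycle small subunits, stood at -1.64 and -1.60, ETF1, the release factor eRF1, at -1.37 and -1.05, and GSPT1, the release factor eRF3, at -1.31 and -1.27 in the authors' deposited tables. Poly(A)-binding proteins and regulators of eIF4F had 5 of 9 negative and 1 positive in each of the authors' deposited tables. PAIP2, an inhibitor of poly(A)-binding protein, had the lowest value of that list, -2.45 (adjusted p = 3.68e-08) and -2.55 (adjusted p = 2.94e-06), and PAIP1, which promotes translation with the same partner, had -1.55 and -1.50, per the authors' deposited tables. Mitochondrial translation factors had 6 of 10 negative and 1 positive with ALKBH5, and 5 and 0 with RBM33, in the authors' deposited tables, with MTIF2, the initiation factor that binds the tRNA, at -1.38 and -1.63. Of 8 genes of hypusine and diphthamide synthesis, the modifications of eIF5A and eEF2, 3 were negative and 1 positive with ALKBH5 and 2 and 1 with RBM33, per the authors' deposited tables, so their negative share was near or below that of all protein-coding genes. DPH3, of the diphthamide pathway, stood at -2.05 and -1.92 in the authors' deposited tables. The kinases of eIF2 and the stress response had 5 of 8 negative and 2 positive with ALKBH5, and 4 and 2 with RBM33 in the authors' deposited tables. EIF2AK2, the kinase PKR, had -1.62 and -1.19, and GCN1, the activator of the kinase GCN2, was positive at 0.87 and 1.29 in the authors' deposited tables.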

How the data were processed

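Per the submitters' processing notes, reads were handled with edgeR 3.24.3, HISAT2 2.1.0, cutadapt 1.18, Subread 1.6.4 and featureCounts on hg38. Which annotation and low-count filter were used, and whether counting used strand, is not given in the sources used here. Sense and antisense reads may therefore be mixed. Columns of the authors' deposited tables are, per the file headers, an average log2 CPM, a log2 fold change, an F statistic (a score without fixed range), a p-value and an adjusted p-value. Recomputing the Benjamini-Hochberg adjustment over the 16324 genes gave the deposited adjusted p-values. The library depth is unknown, and no value per library was used here, so no count model over libraries was fitted, and p-values may reflect technical spread alone.

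The call threshold was 0.05 on the authors' adjusted p, and the sign gave the direction. The 16 libraries were grouped by their titles. Protein-coding genes were divided into 5 equal groups of listed length, and snoRNA hosts were found by position and strand. Groups are described by counts and medians, with no set test; whether both comparisons share libraries is not stated, so their values stand side by side. Named were the 6 most positive and 6 most negative called members per table, the highest and lowest of each role, TOP members and paralogue pairs; no member was called with opposite signs. The other members and the marker, readthrough, snoRNA and opposite-strand rows were named after their values were seen. Outside genes were the TOP list and up to 3 per pathway list with the smallest adjusted p. The members and lists were chosen with earlier results of these data known. Alternatives were a threshold of 0.01, a minimum of 1 log2 unit, abundance, centring, adjustment over protein-coding genes and leaving out near-identical copies. The adjustment and calling code, in Python 3.11.15 with pandas 2.3.3 and numpy 2.4.6, was tested on simulated data. Windows at listed starts came from RefSeq (GRCh38.p14). The value of 1 marker is not reported here.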

Additional observations from a re-analysis of the deposited data

How the results depend on the processing

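With a threshold of 0.01 on the adjusted p, 3 factor mRNAs were called positive in each of the authors' deposited tables in place of 5, and 45 (ALKBH5) and 37 (RBM33) negative. Over all genes at that threshold, 24.4% were positive and 23.6% negative with ALKBH5, and 16.6% and 21% with RBM33. With a minimum of 1 log2 unit, 2 were positive in each of the authors' deposited tables, and 30 (ALKBH5) and 25 (RBM33) negative. The shares over all genes were then 21% positive and 16.2% negative with ALKBH5, and 17.1% and 16.7% with RBM33. Without the genes that hold a snoRNA row and the readthrough rows, an alternative chosen after seeing the data, 3 were positive in each table and 46 and 42 negative. All genes so restricted had 30.5% positive and 28.9% negative with ALKBH5, and 24% and 26.9% with RBM33. Restriction to the more abundant genes, adjustment over protein-coding genes and leaving out near-identical copies each left the counts within 1.5 times of the reported ones. Centring on the protein-coding median did so too. It kept the authors' adjusted p-values, so only calls on values close to 0 could change, and it is no check of the counts. Centring changed the sign of 3 uncalled values with RBM33, to 0.0585 for EIF4B, 0.0107 for EIF2S3 and 0.0149 for EIF2S3B. No paired analysis was possible because values per library were not used here, only the authors' comparisons, and for the same reason no replicate could be left out.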

Other observations

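The long noncoding RNA EIF1B-AS1, whose row lies on the opposite strand beside EIF1B and does not overlap it, was positive at 1.89 (adjusted p = 0.00627) with ALKBH5 and 1.67 (adjusted p = 0.00232) with RBM33 in the authors' deposited tables, while EIF1B itself had -0.94 and -1.12. The divergent transcript EIF3J-DT was not called, at 0.95 (adjusted p = 0.0633) and 0.45 (adjusted p = 0.376), beside the strongly negative EIF3J. These rows, and the pseudogenes named above, were chosen after their values were seen.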
